A study of Mus musculus with 12 samples.

Results

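The comparison described here is between vehicle-treated regenerating muscle of mice labelled for depletion of regulatory T (Treg) cells, at day 8 after injury, and vehicle-treated muscle of mice without the depletion allele, at day 4. These arrays did not show the depletion in Foxp3 mRNA, whose values are given below. Its 6 arrays were chosen by their labels from the 12 arrays of the series. The tissue was the whole tibialis anterior (TA), a muscle of the lower leg, from C57BL/6 mice aged 8 weeks. It was injured on day 0 with cardiotoxin, a snake venom toxin that kills muscle fibres and sets off their regeneration. The earlier group was Foxp3-DTR- muscle at day 4 (n = 3 arrays) and the later group was Foxp3-DTR+ muscle at day 8 (n = 3 arrays). Foxp3-DTR+ mice carry a diphtheria toxin receptor driven by Foxp3, the transcription factor that defines Treg cells. Diphtheria toxin was given on alternate days to both genotypes, so the earlier group received the toxin without the receptor. Both groups received PBS, into the muscle on the day of injury and then into the peritoneum on alternate days. The other 6 arrays repeated both groups with the growth factor amphiregulin (AREG) in place of PBS. They serve here as a second measurement of the same contrast and, through the estimate of spread that all 12 arrays share, they bear on which vehicle differences pass. Every difference below is Foxp3-DTR+ day 8 minus Foxp3-DTR- day 4, so day and genotype changed together and cannot be told apart. The labels do not say whether each array is a separate animal, so p-values measure only the spread between these arrays, which may be technical.

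Cardiotoxin injury leaves the satellite cells, the stem cells of muscle, in place. They divide, become myoblasts and fuse into new fibres that pass through an embryonic stage, while macrophages clear debris and fibroblasts lay down and remodel matrix. Treg cells enter injured muscle and restrain effector T cells and natural killer (NK) cells, whose main cytokine, interferon-gamma, switches on guanylate-binding proteins, immunity-related GTPases, chemokines and the machinery of antigen presentation. In whole muscle, a change in how many cells of a type are present and a change in RNA per cell cannot be told apart.

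Each value is the log2 of an array intensity as the authors deposited it, for 1 probe cluster per gene and 19752 genes. Change means the difference of group means on that scale, ± its standard error (SE, n = 3 arrays per group). A gene passed when its Benjamini-Hochberg adjusted p in a limma fit over all 12 arrays was under 0.05. Of the 19752 genes, 463 (2.34%) passed. Higher at day 8 were 236 (1.19% of all genes) and lower were 227 (1.15%), and 163 of the 463 differed by a log2 of at least 1, 104 of them higher. The rises were larger than the falls at the extreme, reaching 21.4-fold for Iigp1 against 5.84-fold for the fall of Peg10. The median over all genes was -0.04, 8151 differences were positive and 11601 negative, and 2585 genes had an unadjusted p under 0.05.

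The arrays were alike in median intensity, 134 to 143 over all 12. Of the 6 vehicle arrays, day 4 replicate 1 had the narrowest spread of log2 values, with an interquartile range of 2.37 against 2.59 to 2.72 in the others, and day 8 replicate 3 had the highest mean of the interferon, T cell and antigen presentation lists. In AREG muscle, day 8 replicate 3 stood apart, with correlations of 0.9649 to 0.9857 to the other arrays and a quality weight of 0.321. AREG day 4 replicate 1 had the lowest quality weight, 0.167, the narrowest interquartile range, 2.19, and correlations of 0.9693 to 0.9856. Leaving out 1 vehicle array changed the 463 calls to 283 without day 4 replicate 1, 209 without day 4 replicate 2, 267 without day 8 replicate 1, 277 without day 8 replicate 2 and 241 without day 8 replicate 3. Without AREG day 8 replicate 3, 719 genes passed. Of the 463 genes, 96 of the 236 higher and 80 of the 227 lower passed whichever of the 12 arrays was left out, and none changed sign in those fits. Replicate numbers below belong to vehicle arrays unless AREG is named.

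Foxp3, whose promoter drives the receptor, marks the depleted cells. Its log2 values at day 4 were 6.67, 6.52 and 6.51, and at day 8 were 6.51, 6.49 and 6.65. The groups overlapped, and the difference was -0.02 ± 0.11 (adjusted p = 0.955 in limma, 95% interval -0.25 to 0.21). Whether Treg cells were depleted in these muscles at dissection cannot be told from these values. The sign of this small difference turned or reached 0 in 5 alternative fits named in the closing section. The labelled tissue was borne out by its own markers: Myh4, a fast myosin heavy chain, read 13.24, 13.25 and 13.37 at day 4 and 13.32, 13.28 and 13.34 at day 8. Acta1, skeletal muscle actin, read 13.81 to 13.93 at day 4 and 13.78 to 13.87 at day 8.

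The largest rises were in genes of the interferon-gamma response. Of 22 measured members of that list, 16 passed as higher and none as lower, against 1.19% of all genes higher, and the 6 others did not pass. The median change over the 22 was 1.69, against -0.04 over all genes. Lists like this one were drawn up with earlier results of these data known, so their counts are descriptions. Iigp1, a GTPase that attacks the vacuoles of intracellular parasites, had log2 values of 7.33, 7.34 and 7.53 at day 4 and 11.54, 11.68 and 12.24 at day 8. Cxcl9, a chemokine that draws T cells through the receptor CXCR3, had 7.90, 8.25 and 8.13 at day 4 and 11.49, 11.72 and 12.03 at day 8. Gbp4, a guanylate-binding protein, had 7.01, 7.25 and 7.70 at day 4 and 10.32, 10.36 and 11.12 at day 8. In all of these genes every day 8 array lay above every day 4 array, with day 8 replicate 3 the highest. The changes were 4.42 ± 0.23 for Iigp1 (limma adjusted p = 4.37e-08), 3.66 ± 0.28 for Cxcl9 (adjusted p = 2.75e-06) and 3.28 ± 0.25 for Gbp4 (adjusted p = 2.75e-06).

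Other GTPases of the response followed the same pattern. Irgm1, an immunity-related GTPase linked to autophagy, rose from 7.78, 7.68 and 7.95 to 10.40, 10.53 and 11.31, a change of 2.95 ± 0.24 (limma adjusted p = 7.69e-06). Gbp7 rose from 8.12, 8.34 and 8.51 to 10.86, 10.60 and 11.82, a change of 2.77 ± 0.32 (limma adjusted p = 0.000182). Gbp2b rose 7.47-fold, Gbp8 6.36-fold and Gbp11 5.34-fold, and the GTPase gene Gm4951 rose by 2.94 ± 0.22. Irf1, the transcription factor that carries interferon-gamma signals to many of these genes, is named here after its values were seen. It had 7.78, 7.83 and 7.67 at day 4 and 9.24, 9.30 and 10.08 at day 8, a change of 1.78 ± 0.18 (limma adjusted p = 4.99e-05). All 8 measured genes named Gbp and a digit, and all 6 of the immunity-related GTPase family, passed as higher. These families were counted after the values were seen.

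Ifng, the cytokine gene itself, passed with a smaller change than the genes above. It had 6.32, 6.21 and 6.43 at day 4 and 6.79, 7.07 and 7.77 at day 8, so the groups were apart and day 8 replicate 3 was again the highest. The change was 0.89 ± 0.21 (limma adjusted p = 0.0378), and the call ended on leaving out day 4 replicate 1, 2 or 3, day 8 replicate 2 or 3, or AREG day 4 replicate 3, with adjusted p up to 0.2 without day 4 replicate 2. Ifngr1, the ligand-binding chain of its receptor, changed by 0.16 with a 95% interval of -0.18 to 0.50 and did not pass. Socs1, a feedback inhibitor of the pathway, changed by 0.58 and did not pass (limma adjusted p = 0.105). Leaving out single arrays moved the count of the 22 passing as higher between 12 and 17. It was 12 without day 8 replicate 3.

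**Figure D1:**
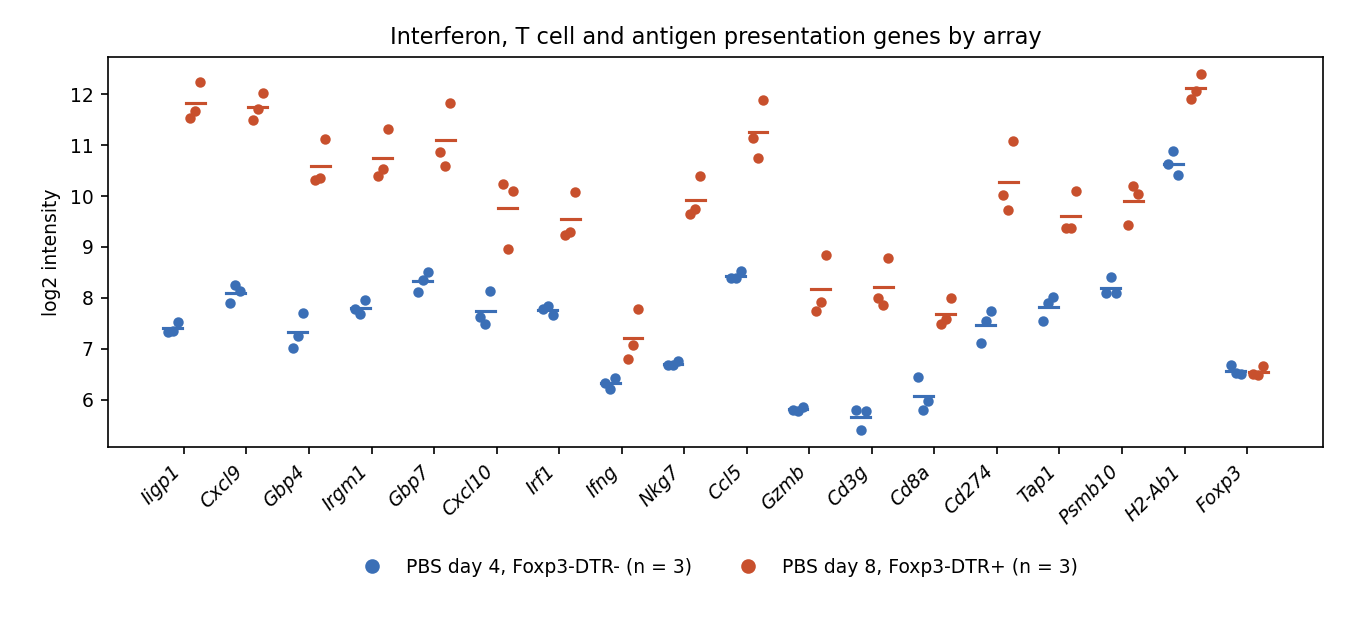
Log2 intensity of 18 genes of interferon response, lymphocytes and antigen presentation on each of the 6 vehicle arrays, with 3 dots per group and a bar at the group mean (blue for Foxp3-DTR- day 4, orange for Foxp3-DTR+ day 8). The day 8 dots lie above the day 4 dots in all genes shown except Foxp3, from Iigp1 with a change of 4.42 to Ifng with 0.89, while Foxp3 lies at about 6.5 in both groups.

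The sequences upstream of 4 of these genes are printed because interferon-gamma acts through short promoter elements and these genes rose together. They are the 250 bases before the RefSeq start of each gene on GRCm38.p6, 5′ to 3′ on the gene's strand. Capitals mark matches to the gamma-activated sequence (GAS, TTCNNNGAA) and to the interferon-stimulated response element (ISRE, GAAA and GAAA with any 2 bases between), both searched on both strands. Irf1 lies at chr11:53769764-53770013 on the plus strand and holds 1 GAS match from -90 to -82 of the start, in 1 of its annotated start windows. Gbp7 lies at chr3:142530086-142530335 on the plus strand and holds 2 GAS matches and 1 ISRE match. Irgm1 lies at chr11:48871421-48871670 on the minus strand and holds 2 overlapping ISRE matches within 30 bases of the start. Cxcl10 lies at chr5:92348890-92349139 on the minus strand and holds 1 ISRE match.
Irf1: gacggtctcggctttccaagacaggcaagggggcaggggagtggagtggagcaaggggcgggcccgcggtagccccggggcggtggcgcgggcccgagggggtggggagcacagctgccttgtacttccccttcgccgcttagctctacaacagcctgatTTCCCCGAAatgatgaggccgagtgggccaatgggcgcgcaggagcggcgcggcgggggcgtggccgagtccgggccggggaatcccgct
Gbp7: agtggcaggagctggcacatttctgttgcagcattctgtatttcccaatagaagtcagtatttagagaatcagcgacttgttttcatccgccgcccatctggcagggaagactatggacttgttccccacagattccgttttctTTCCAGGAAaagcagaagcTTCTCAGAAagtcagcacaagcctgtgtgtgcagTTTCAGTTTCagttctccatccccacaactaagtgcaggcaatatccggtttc
Irgm1: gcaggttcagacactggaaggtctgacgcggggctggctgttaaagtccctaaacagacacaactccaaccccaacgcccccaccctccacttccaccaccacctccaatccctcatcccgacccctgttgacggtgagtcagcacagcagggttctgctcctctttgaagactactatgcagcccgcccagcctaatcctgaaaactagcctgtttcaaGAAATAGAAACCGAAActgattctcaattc
Cxcl10: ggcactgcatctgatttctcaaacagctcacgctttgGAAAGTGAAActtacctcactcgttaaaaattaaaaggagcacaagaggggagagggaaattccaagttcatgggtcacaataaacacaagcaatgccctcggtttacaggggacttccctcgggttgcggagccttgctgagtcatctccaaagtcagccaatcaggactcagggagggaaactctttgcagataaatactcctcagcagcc
A window of 300 bases, from 250 before the start to 50 after it, was held for 15435 of the genes. GAS was in 8.97% and ISRE in 3.88% of them. Among the 178 genes passing as higher with a window, GAS was in 18% and ISRE in 18%, and among the 159 passing as lower the shares were 6.29% and 3.77%. Of the 11 interferon-gamma list members with a window, GAS was in 36.4% and ISRE in 54.5%. Cxcl9, Cd274, Tap1 and Psmb9 rose as well, and these letters were not found in the 250 bases before their starts. A match is a run of letters and not a measured binding site.

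Chemokine genes were the next group. Of 32 measured chemokines and receptors, 10 passed as higher and none as lower, and the median change was 0.28. Ccl5, which attracts T cells and NK cells, had 8.38, 8.38 and 8.52 at day 4 and 11.14, 10.75 and 11.88 at day 8, a change of 2.83 ± 0.37 (limma adjusted p = 0.000555). Cxcl10, a second CXCR3 ligand, had 7.62, 7.48 and 8.13 at day 4 and 10.23, 8.96 and 10.09 at day 8, a change of 2.02 ± 0.26 (limma adjusted p = 0.000541). The groups were apart in both, and Cxcl10 was lowest of the day 8 arrays in replicate 2. Cxcl11, the other CXCR3 ligand, changed by 0.44 and did not pass (limma adjusted p = 0.123).

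Ccl11, eotaxin, which recruits eosinophils, had 9.15, 8.75 and 8.65 at day 4 and 10.25, 10.28 and 10.15 at day 8, a change of 1.38 ± 0.20 (limma adjusted p = 0.00144). Ccl17, a CCR4 ligand made by dendritic cells, rose by 1.78 ± 0.29 (limma adjusted p = 0.00301). The receptor gene Cxcr6 rose by 2.05 ± 0.25 (limma adjusted p = 0.000368). Cxcr3 rose by 0.81 ± 0.18, a call lost without day 4 replicate 2 or 3 or day 8 replicate 1 or 3 (limma adjusted p up to 0.116). The count of 10 fell to 6 without day 4 replicate 2, without day 4 replicate 3 and without day 8 replicate 3.

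Cytotoxic and NK cell genes were higher at day 8. Of 20 measured, 14 passed as higher and none as lower, and in 19 every day 8 array lay above every day 4 array, against 9.17% of all genes with that separation. The median change was 1.02. Nkg7, a granule membrane protein of cytotoxic cells, had 6.67, 6.67 and 6.75 at day 4 and 9.65, 9.74 and 10.40 at day 8. Gzmb, granzyme B, had 5.79, 5.77 and 5.86 at day 4 and 7.75, 7.91 and 8.85 at day 8. The day 4 arrays lay within 0.1 of each other in both genes, while day 8 replicate 3 was well above the other two at day 8. The changes were 3.23 ± 0.32 for Nkg7 (limma adjusted p = 3.82e-05) and 2.36 ± 0.33 for Gzmb (limma adjusted p = 0.000888).

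The NK receptor gene Ncr1, named after its values were seen, rose by 1.35, and the activating receptor gene Klrk1 by 1.62 ± 0.29 (limma adjusted p = 0.00614). Prf1, perforin, changed by 0.52 (adjusted p = 0.0782) and Klrd1 by 1.04 (adjusted p = 0.0846), neither passing in limma. The count of 14 was 9, 7 and 9 without day 4 replicates 1, 2 and 3, and 9, 9 and 8 without day 8 replicates 1, 2 and 3.

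T cell genes moved the same way, Cd8a and Cd8b1 passing and Cd4 not. Of 17 measured T cell genes 9 passed as higher and none as lower, with a median change of 0.75. Cd3g, a chain of the T cell receptor complex, had 5.79, 5.41 and 5.78 at day 4 and 8.00, 7.85 and 8.79 at day 8, a change of 2.55 ± 0.32 (limma adjusted p = 0.000388). Cd8a, the co-receptor of cytotoxic T cells, had 6.45, 5.79 and 5.97 at day 4 and 7.49, 7.58 and 8.00 at day 8, a change of 1.62 ± 0.25 (limma adjusted p = 0.00183). Cd4, the co-receptor of helper and Treg cells, had 6.86, 7.19 and 6.75 at day 4 and 7.58, 7.10 and 8.36 at day 8. Its groups overlapped, day 8 replicate 2 lying below day 4 replicate 2, and the difference of 0.75 ± 0.25 did not pass (limma adjusted p = 0.169, 95% interval 0.22 to 1.27). Whether Cd8a changed more than Cd4 was not tested. Cd8b1 rose by 1.82 ± 0.26, Cd3e by 1.49 ± 0.24 and the costimulator Icos by 1.21 ± 0.20. The count of 9 ranged from 6 to 10 with single arrays left out, and was 6 without day 4 replicate 2 and without day 8 replicate 3.

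The mean of the T cell list on each array was 6.42, 6.35 and 6.31 at day 4 and 7.14, 7.09 and 7.51 at day 8. The mean of the interferon-gamma list moved alongside it, at 7.38, 7.43 and 7.58 at day 4 and 9.01, 9.04 and 9.55 at day 8. The part of lymphocyte content in the interferon-gamma rises was not tested. None of 16 measured B cell and plasma cell genes passed, and none of 15 mast cell and eosinophil genes. Only 1 of the 16 and 3 of the 15 read above the median level of all genes, so these counts say little. Above it also read only 4 of 17 T cell genes and 2 of 20 cytotoxic and NK genes. With only genes at or above the median level kept, 1 T cell gene and 2 cytotoxic and NK genes passed.

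**Figure D2:**
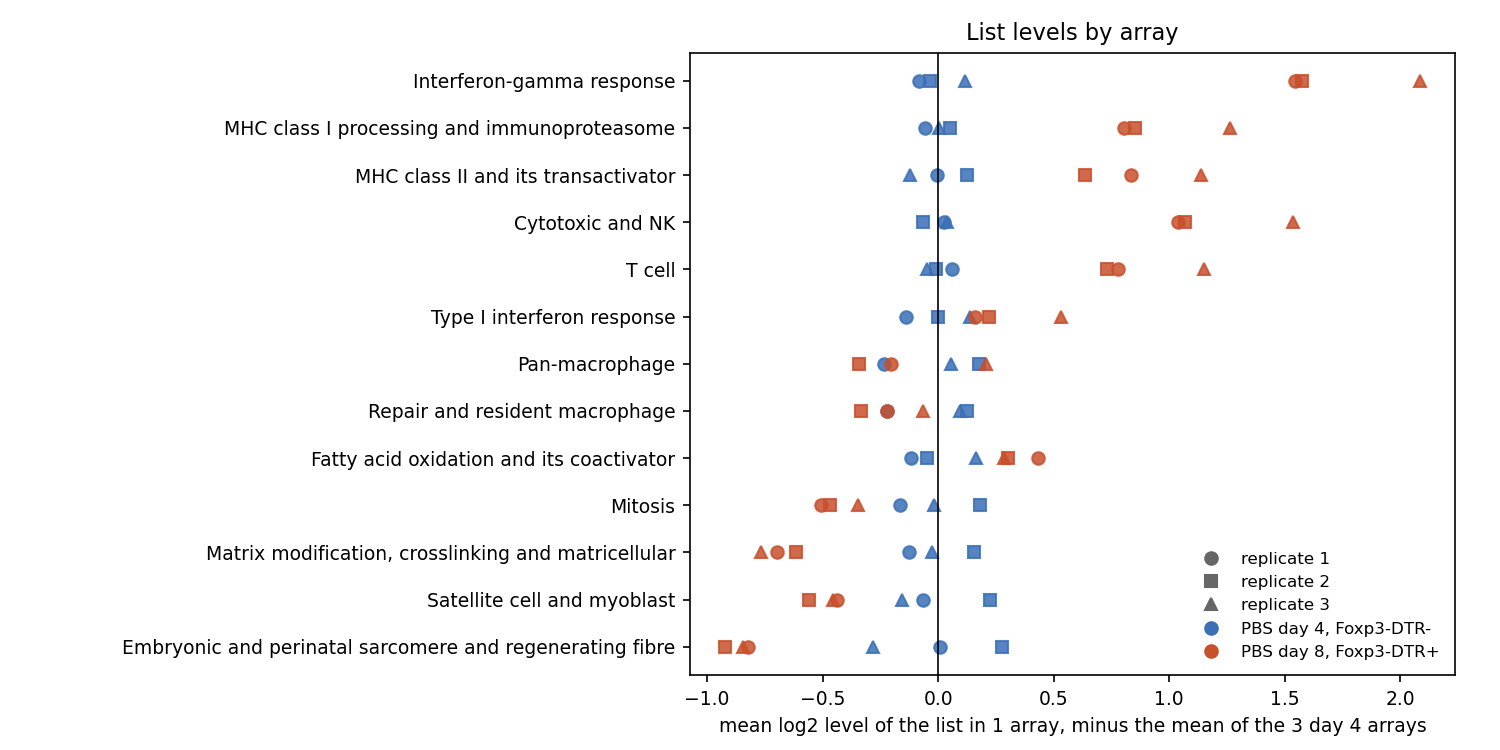
Mean log2 intensity of 13 gene lists on each vehicle array, minus the mean of the 3 day 4 arrays, with marker shape for the replicate and colour for the group (blue for day 4, orange for day 8). The interferon-gamma list shows the widest gap between the groups, day 8 replicate 3 is the highest in the T cell and cytotoxic lists, and in the pan-macrophage list the groups overlap.

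Genes of Treg cells and immune checkpoints were mixed. Of 22 measured, 6 passed as higher and none as lower, with a median change of 0.18. Cd274, the checkpoint ligand PD-L1 and itself induced by interferon-gamma, had 7.11, 7.55 and 7.75 at day 4 and 10.03, 9.72 and 11.09 at day 8, a change of 2.81 ± 0.33 (limma adjusted p = 0.000222). Il2ra, the high-affinity interleukin-2 receptor chain found on Treg and on activated effector cells, had 5.64, 5.40 and 5.67 at day 4 and 6.42, 6.61 and 6.65 at day 8, a change of 0.99 ± 0.11 (limma adjusted p = 0.000162). The groups were apart in both genes. Klrg1, a receptor of differentiated effector T cells and of some Treg cells, rose by 0.92 ± 0.15 (limma adjusted p = 0.00324). Ctla4, an inhibitory receptor, rose by 0.61 ± 0.12 (adjusted p = 0.0128), a call lost without day 4 replicate 3, day 8 replicate 2 or day 8 replicate 3 (limma adjusted p up to 0.0603). Icos and Pdcd1lg2 were the other members that passed, and several of the 6 are not restricted to Treg cells. The count ranged from 4 to 7 with single arrays left out and was 4 without day 8 replicate 3.

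Most antigen presentation genes were higher at day 8. Of 16 measured genes of MHC class I processing and the immunoproteasome, 14 passed as higher and none as lower, and the median change was 0.86. Tap1, a subunit of the transporter that loads peptides onto class I molecules, had 7.55, 7.89 and 8.01 at day 4 and 9.38, 9.37 and 10.10 at day 8, a change of 1.80 ± 0.19 (limma adjusted p = 5.91e-05). Psmb10, an immunoproteasome subunit, had 8.09, 8.40 and 8.10 at day 4 and 9.44, 10.20 and 10.04 at day 8, a change of 1.70 ± 0.25 (limma adjusted p = 0.00144). All day 8 arrays exceeded all day 4 arrays in both. The other immunoproteasome subunits rose as well, Psmb8 by 1.42 ± 0.26 and Psmb9 by 1.15 ± 0.15, and the peptide-trimming enzyme Erap1 by 0.97 ± 0.14. The class I gene H2-Q4 rose by 2.17 ± 0.23 (limma adjusted p = 8.88e-05), although genes of this family are near copies whose probes may read one another. The count of 14 was 8 without day 4 replicate 1, 9 without day 4 replicate 3 and 8 without day 8 replicate 3.

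Of 9 measured MHC class II genes, 6 passed as higher, with a median change of 1.25. Cd74, the invariant chain, had 11.19, 11.27 and 11.06 at day 4 and 12.38, 12.32 and 12.70 at day 8, a change of 1.29 ± 0.23 (limma adjusted p = 0.00667). H2-Ab1, a class II beta chain, had 10.62, 10.88 and 10.41 at day 4 and 11.91, 12.07 and 12.39 at day 8, a change of 1.48 ± 0.30 (limma adjusted p = 0.0143). The groups were apart in both. Ciita, the transactivator of the class II genes, rose by 0.98 ± 0.21 (limma adjusted p = 0.0197). The calls of H2-Ab1, H2-DMa and Ciita ended without single arrays, the highest adjusted p in limma being 0.0781, 0.0895 and 0.109, in each case without day 8 replicate 3. The count of 6 was 2 without day 4 replicate 1, 3 without day 4 replicate 3 and 2 without day 8 replicate 3.

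Genes induced mainly by type I interferon moved less. Of 26 measured, 4 passed as higher and none as lower, against 1.19% of all genes higher, with a median change of 0.23. They were Stat2 (0.72 ± 0.14), Zbp1 (0.84), Irf9 (0.71) and Ifih1 (0.69), which are signalling components and nucleic acid sensors of the pathway. None of the 4 passed without day 4 replicate 1 or without day 8 replicate 3, and 1 passed without day 4 replicate 2 or without day 8 replicate 2. In AREG muscle all 4 passed, with changes of 0.85, 1.09, 1.11 and 0.81 in the same order, and the list median was 0.47. Complement genes gave 3 of 19, C1ra at 0.99 ± 0.17 (limma adjusted p = 0.00426), C4b at 0.96 ± 0.17 (adjusted p = 0.00579) and C1s1 at 1.07 ± 0.24 (adjusted p = 0.0245), the last not passing without any 1 of the 6 vehicle arrays (up to 0.116). The dendritic cell list gave 3 of 19: Ccl17, Ccl22 and Clec9a, the last a receptor of cross-presenting dendritic cells, at 1.48 ± 0.29 (limma adjusted p = 0.0125). Only 1 of these 3 passed without day 4 replicate 1, day 4 replicate 2 or day 8 replicate 3. Every day 8 array lay above every day 4 array in 9 of 26 type I interferon, 9 of 19 complement and 9 of 19 dendritic cell genes. That separation held for 9.17% of all genes. The opposite separation held for 0, 1 and 1 of these genes, against 14.2% of all genes.

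Macrophage genes did not move as a group with vehicle. None of 22 measured pan-macrophage genes passed, with a median of -0.06, and the list mean was 9.39, 9.80 and 9.68 at day 4 and 9.42, 9.28 and 9.83 at day 8. In AREG muscle the median was 0.52, with list means of 8.34, 8.77 and 8.44 at day 4 and 9.57, 9.12 and 8.30 at day 8. Adgre1, which encodes F4/80, differed by 0.42 (95% interval -0.35 to 1.19) and Cd68 by -0.59 (95% interval -1.19 to 0.02), and neither passed. None of 20 inflammatory monocyte genes passed, and 7 of them read above the median level of all genes. Every day 8 array lay above every day 4 array in 5 of the 20 and below in 5, against 9.17% and 14.2% of all genes. Of 25 genes of repair and resident macrophages, 1 passed as higher and 5 as lower, against 1.15% of all genes lower. Retnla, a marker of alternative activation also made by eosinophils and stromal cells, had 9.10, 8.39 and 8.94 at day 4 and 11.24, 11.12 and 10.69 at day 8, a change of 2.20 ± 0.27 (limma adjusted p = 0.000318). Here day 8 replicate 3 was the lowest of the day 8 arrays, and the groups were apart.

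The 5 genes lower were Stab1, a scavenger receptor, at -1.05 ± 0.17 (limma adjusted p = 0.00366), Trem2, a lipid receptor of macrophages, at -1.05 ± 0.22 (adjusted p = 0.0162), Pf4, a chemokine, at -0.76 ± 0.16, Apoe, a lipid carrier, at -0.71 ± 0.17, and Cd63, a lysosomal membrane protein, at -0.68 ± 0.13. Their number was 1 without day 4 replicate 2, 2 without day 8 replicate 1 and 1 without day 8 replicate 2. Mrc1 and Cd163, the hallmark receptors of repair macrophages, differed by 0.08 and 0.01 and did not pass.

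Genes of fusing myoblasts and of new fibres were among the largest falls. Of 24 measured satellite cell and myoblast genes, 7 passed as lower and none as higher, with a median change of -0.37. Mymk, myomaker, the membrane protein that myoblasts need to fuse, had 11.18, 11.54 and 11.00 at day 4 and 9.13, 8.59 and 8.95 at day 8, a change of -2.35 ± 0.23 (limma adjusted p = 3.82e-05). Myog, myogenin, the transcription factor of differentiating myoblasts, had 8.58, 9.19 and 8.36 at day 4 and 7.49, 7.39 and 7.59 at day 8, a change of -1.22 ± 0.21 (limma adjusted p = 0.00406). All day 8 arrays lay below all day 4 arrays in both, and day 4 replicate 2 was the highest. Cdh15, M-cadherin, changed by -0.87 and Itga7, an integrin chain that binds laminin, by -0.81. Pax7, a marker of satellite cells, differed by -0.47 (limma adjusted p = 0.0641) and Myod1 by -0.73 (adjusted p = 0.119), and neither passed. The count of 7 ranged from 5 to 10 with single arrays left out.

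Of 19 measured genes of embryonic sarcomeres and regenerating fibres, 9 passed as lower and none as higher, with a median change of -1.03. Chrng, the fetal gamma subunit of the acetylcholine receptor, had 9.24, 9.85 and 8.72 at day 4 and 6.97, 6.80 and 7.06 at day 8, a change of -2.32 ± 0.22 (limma adjusted p = 2.56e-05). Tnnt2, cardiac troponin T, which regenerating skeletal fibres make for a time, had 11.85, 11.98 and 11.29 at day 4 and 9.66, 9.94 and 9.89 at day 8, a change of -1.88 ± 0.27 (limma adjusted p = 0.00125). Both were apart between groups by more than 1 log2 unit, and the day 4 arrays spread more than the day 8 arrays. Ncam1, an adhesion molecule of immature fibres, changed by -1.44 and Ckb, the brain-type creatine kinase, by -1.03. The embryonic and neonatal myosin genes Myh3 and Myh8 differed by -1.0 and -1.08 and did not pass (limma adjusted p = 0.116 and 0.0847). The count of 9 ranged from 7 to 12 with single arrays left out.

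At the neuromuscular junction 3 of 16 genes passed, all lower and all subunits of the acetylcholine receptor. Beside Chrng these were Chrna1, the alpha subunit, with 10.61, 10.90 and 10.20 at day 4 and 9.19, 8.65 and 9.12 at day 8, and Chrnd. The groups of Chrna1 were apart. Its change was -1.59 ± 0.24 (limma adjusted p = 0.00168), and that of Chrnd was -1.15 ± 0.21 (adjusted p = 0.00693). Chrne, the epsilon subunit that replaces gamma at mature junctions, had 8.55, 8.26 and 8.59 at day 4 and 9.34, 8.50 and 9.06 at day 8. Its groups overlapped, and the difference of 0.50 ± 0.18 did not pass (limma adjusted p = 0.21, 95% interval 0.12 to 0.88). Chrnb1 differed by -0.11. The same 3 subunits passed with each array left out.

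The upstream 250 bases of Chrng and Chrna1 are shown because both subunit genes fell with Myog, and myogenic factors bind E-boxes. Capitals mark the E-box CAGCTG, which reads the same on both strands. Chrng lies at chr1:87205561-87205810 on the plus strand and Chrna1 at chr2:73580339-73580588 on the minus strand (RefSeq, GRCm38.p6), and each holds 2 matches.
Chrng: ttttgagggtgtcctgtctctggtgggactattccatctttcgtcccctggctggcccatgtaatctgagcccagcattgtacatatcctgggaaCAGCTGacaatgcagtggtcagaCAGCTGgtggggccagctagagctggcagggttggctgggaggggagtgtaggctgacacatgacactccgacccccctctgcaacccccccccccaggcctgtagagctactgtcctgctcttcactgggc
Chrna1: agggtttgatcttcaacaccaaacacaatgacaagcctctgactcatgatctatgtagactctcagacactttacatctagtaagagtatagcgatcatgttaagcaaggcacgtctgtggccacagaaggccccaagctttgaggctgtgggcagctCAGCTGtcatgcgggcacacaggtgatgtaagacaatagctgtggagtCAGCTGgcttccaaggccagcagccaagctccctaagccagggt
In windows of 300 bases CAGCTG was found for 18.3% of the 15435 genes with a window, for 25.8% of the genes passing as higher and for 23.9% of those passing as lower. Myog and Myl4, which fell as well, hold no CAGCTG in their upstream 250 bases, and Tnnt2 holds 2 in 1 of its annotated start windows.

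Mir206, a muscle microRNA gene under myogenic control, is named after its values were seen. Its probe cluster had 5.75, 6.11 and 5.62 at day 4 and 4.41, 4.48 and 4.42 at day 8, a change of -1.39 ± 0.21 (limma adjusted p = 0.00196). The day 8 arrays lay together below all day 4 arrays, and the gene passed with each array left out. All of these values lay well below the medians of the vehicle arrays, 7.11 to 7.14 on this scale. The size of a fall is less certain at such low levels. The cluster reads transcript of the locus, and the mature microRNA was not measured. The mature sequence from RefSeq is printed with its seed, bases 2 to 8, in capitals, at chr1:20679055-20679076 on the plus strand of GRCm38.p6.
mmu-miR-206-3p: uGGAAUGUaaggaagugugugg

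**Figure D3:**
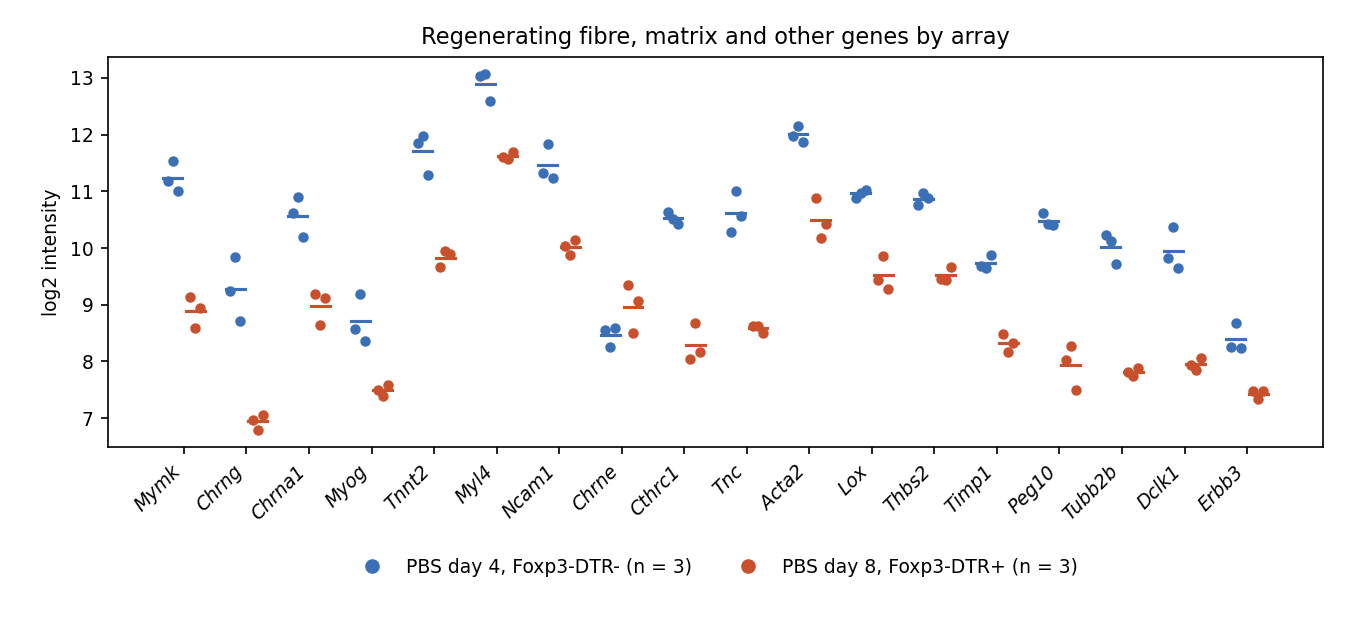
Log2 intensity of 18 genes of myoblasts, new fibres, matrix and other falls on each of the 6 vehicle arrays, with 3 dots per group and a bar at the group mean (blue for Foxp3-DTR- day 4, orange for Foxp3-DTR+ day 8). The day 8 dots lie below the day 4 dots in all genes shown except Chrne, where the groups overlap and the difference is 0.50.

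Genes of mature fibres changed little in size. Of 29 measured fast fibre genes, 25 had a positive difference and the median was 0.13. In 11 of the 29 every day 8 array lay above every day 4 array, against 9.17% of all genes. Only 1 passed, Myh2, the myosin of oxidative fast fibres, at 0.56 ± 0.12 (limma adjusted p = 0.0197). It did not pass without any 1 of 5 vehicle arrays, all but day 4 replicate 3. Of 12 slow fibre genes 1 passed: Myl2, the slow regulatory light chain, had 9.11, 10 and 10.51 at day 4 and 11.48, 11.53 and 10.99 at day 8, a change of 1.46 ± 0.28 (limma adjusted p = 0.0103). The groups were apart, with day 4 replicate 1 far below the rest, and the call ended without day 8 replicate 1 or day 8 replicate 2, while 2 slow fibre genes passed without day 4 replicate 3. Ckm, muscle creatine kinase, differed by 0.06, and none of 19 glycolysis and glycogen genes passed.

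Few genes of mitochondrial metabolism passed, though a larger share than the 1.19% of all genes higher. Every day 8 array lay above every day 4 array in 21 of 33 oxidative phosphorylation genes and in 11 of 21 fatty acid oxidation genes. That separation held for 9.17% of all genes. Of 33 measured genes of oxidative phosphorylation, 32 had a positive difference, the median was 0.28 and 2 passed: Cox7a1 at 0.71 (limma adjusted p = 0.0265) and Ndufa1 at 0.62 (adjusted p = 0.0481). All 21 measured genes of fatty acid oxidation had a positive difference, the median was 0.31 and 2 passed: Ucp3, a mitochondrial carrier, at 0.90 (limma adjusted p = 0.0338) and Ppargc1a, the coactivator of mitochondrial genes, at 0.49 (adjusted p = 0.0353). All 4 calls ended without day 8 replicate 1 or day 8 replicate 2 and without 2 or more further arrays each, day 4 replicate 1 among them, the highest adjusted p in limma being 0.161, 0.316, 0.157 and 0.175. In AREG muscle the medians of both lists were 0.00 and 0.07, and Ucp3 differed by -0.15 there.

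Matrix genes formed the second large group of falls. Of 32 measured genes of matrix modification and matricellular proteins, 12 passed as lower and none as higher, in 25 every day 8 array lay below every day 4 array against 14.2% of all genes, and the median change was -0.67. Cthrc1, a secreted protein of activated fibroblasts, had 10.64, 10.51 and 10.43 at day 4 and 8.04, 8.67 and 8.16 at day 8, a change of -2.24 ± 0.19 (limma adjusted p = 1.01e-05). Tnc, tenascin C, a matrix protein of injured tissue, had 10.29, 11.01 and 10.56 at day 4 and 8.63, 8.63 and 8.50 at day 8, a change of -2.04 ± 0.30 (limma adjusted p = 0.00144). The groups were more than 1 log2 unit apart in both genes. Acta2, the smooth muscle actin of myofibroblasts and vessel walls, had 11.98, 12.16 and 11.87 at day 4 and 10.88, 10.17 and 10.42 at day 8, a change of -1.51 ± 0.17 (limma adjusted p = 0.000194).

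Lox, the enzyme that crosslinks collagen, fell from 10.89, 10.97 and 11.03 to 9.43, 9.86 and 9.27, a change of -1.44 ± 0.20 (limma adjusted p = 0.000888). Thbs2, thrombospondin 2, changed by -1.35 ± 0.13 (limma adjusted p = 3.82e-05) and Ltbp2, a latent TGF-beta binding protein family member, by -1.16 ± 0.12 (adjusted p = 5.52e-05). The count of 12 was 8 without day 4 replicate 2 and 21 without AREG day 8 replicate 3. Of 18 matrix proteases and inhibitors, 4 passed as lower: Timp1, a metalloproteinase inhibitor, at -1.42 ± 0.25 (limma adjusted p = 0.00567), Mmp13, a collagenase, at -1.31 ± 0.21, Adam12 at -0.99 ± 0.15 and Mmp8 at -0.60. The Mmp8 call ended without any 1 of the vehicle arrays except day 8 replicate 1 (limma adjusted p up to 0.129).

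The collagens themselves moved less firmly. Of 19 measured, 3 passed as lower, Col5a1 at -0.60, Col12a1 at -1.12 and Col5a2 at -0.84, while in 14 every day 8 array lay below every day 4 array, against 14.2% of all genes. The main fibrillar chains Col1a1 and Col3a1 differed by -0.87 and -0.70 and did not pass (limma adjusted p = 0.169 and 0.415). With any 1 vehicle array left out, 0 or 1 collagen passed, and without AREG day 8 replicate 3, 9 passed. Few markers of other stromal cells passed. Of 15 fibro-adipogenic progenitor genes only Lox passed, and of 13 smooth muscle and pericyte genes Acta2 and Tagln, against 1.15% of all genes lower. Of 22 endothelial genes and of 12 tendon and Schwann cell genes none did. The medians of these lists were -0.02, -0.04, 0.13 and 0.06. In turn, 3, 5, 2 and 3 of their genes had every day 8 array below every day 4 array, against 14.2% of all genes. The opposite separation held for 2, 0, 3 and 0, against 9.17% of all genes. Tagln did not pass without day 4 replicate 1 or 2, day 8 replicate 1 or 3, or replicate 2 of AREG day 4 or day 8 (limma adjusted p up to 0.223), which leaves 1 of the 13.

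Genes of mitosis and ribosomal proteins had mostly small negative differences. Every day 8 array lay below every day 4 array in 19 of 29 mitosis genes, 14 of 25 ribosomal protein genes and 7 of 28 DNA replication genes. Of all genes, 14.2% had that separation and 1.15% passed as lower. Of 29 measured mitosis genes, 28 had a negative difference, the median was -0.43 and 2 passed, the kinase gene Plk1 at -0.76 (limma adjusted p = 0.0127) and the kinesin gene Kif2c at -0.61 (adjusted p = 0.0197). No mitosis gene passed without day 4 replicate 2, day 8 replicate 1 or day 8 replicate 2, 1 passed without day 4 replicate 3, and 5 and 8 passed without AREG day 8 replicates 1 and 3. In AREG muscle the median of the list was 0.04, Plk1 differed by 0.09 and Kif2c by 0.03. With array quality weights 18 mitosis genes passed as lower with vehicle. Mki67, the proliferation antigen, differed by -0.37 and did not pass (limma adjusted p = 0.582), and none of 28 DNA replication genes did. All 25 measured cytosolic ribosomal protein genes had a negative difference, with a median of -0.23, and 1 passed, Rps19 at -0.52 (limma adjusted p = 0.0393, up to 0.258 without day 4 replicate 2). Asns, asparagine synthetase, was 1 of 2 genes passing as lower of 24 in the endoplasmic reticulum and stress list, at -0.81 ± 0.13 (limma adjusted p = 0.00324). The other was the collagen-folding enzyme gene P4hb at -0.51, which did not pass on leaving out 9 of the arrays (limma adjusted p up to 0.303, without day 4 replicate 2).

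Among 30 measured genes of the EGF receptor family, its ligands and its early response genes, 1 passed. Over all genes 1.19% passed as higher and 1.15% as lower, so a count of 0 or 1 in the lists of this paragraph says little. Erbb3, the neuregulin co-receptor, had 8.26, 8.68 and 8.24 at day 4 and 7.48, 7.33 and 7.48 at day 8, a change of -0.97 ± 0.14 (limma adjusted p = 0.00108), with the groups apart. Egfr, the receptor that AREG binds, differed by -0.27 (limma adjusted p = 0.458, 95% interval -0.57 to 0.04). None of 10 blood and skin genes passed, and of 19 neutrophil genes only Mmp8 did. No neutrophil gene passed without any 1 of day 4 replicates 1 to 3 or day 8 replicates 2 and 3. None of the 19 read above the median level of all genes, and Mmp8 averaged 4.95 at day 4 and 4.35 at day 8. Of 17 heme and iron genes 1 passed, the ferroxidase gene Cp at 0.93 ± 0.16 (limma adjusted p = 0.00452). Of 20 adipocyte genes 1 passed, the lipogenic gene Thrsp at 0.73 (limma adjusted p = 0.0197, up to 0.132 without day 4 replicate 2), and of 19 genes of atrophy and denervation Chrng and Ncam1 passed, both lower, a count of 2 that was 5 without AREG day 8 replicate 3. The count of 1 adipocyte gene was 0 without day 4 replicate 2 or 3 or day 8 replicate 1 or 3, and 3 without AREG day 8 replicate 3.

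Genes outside these lists were among the largest falls. Peg10, an imprinted gene of retrotransposon origin, had 10.61, 10.43 and 10.41 at day 4 and 8.03, 8.28 and 7.50 at day 8, a change of -2.55 ± 0.19 (limma adjusted p = 2.75e-06). Tubb2b, a beta-tubulin, had 10.23, 10.12 and 9.72 at day 4 and 7.82, 7.74 and 7.89 at day 8, a change of -2.21 ± 0.19 (limma adjusted p = 1.01e-05). Dclk1, a microtubule-associated kinase, changed by -2.0 ± 0.24 (limma adjusted p = 0.000264) and Lrrc15, a membrane protein of activated fibroblasts, by -1.63 ± 0.19 (adjusted p = 0.000219). In all 4 genes the groups were apart. Of the largest rises, Ms4a4b, a T cell membrane protein, changed by 2.60 ± 0.34 and Rnase2a, an eosinophil-type ribonuclease, by 2.47 ± 0.39, the latter with day 8 values of 7.93, 7.08 and 6.23 against 4.52 to 4.70 at day 4.

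**Figure D4:**
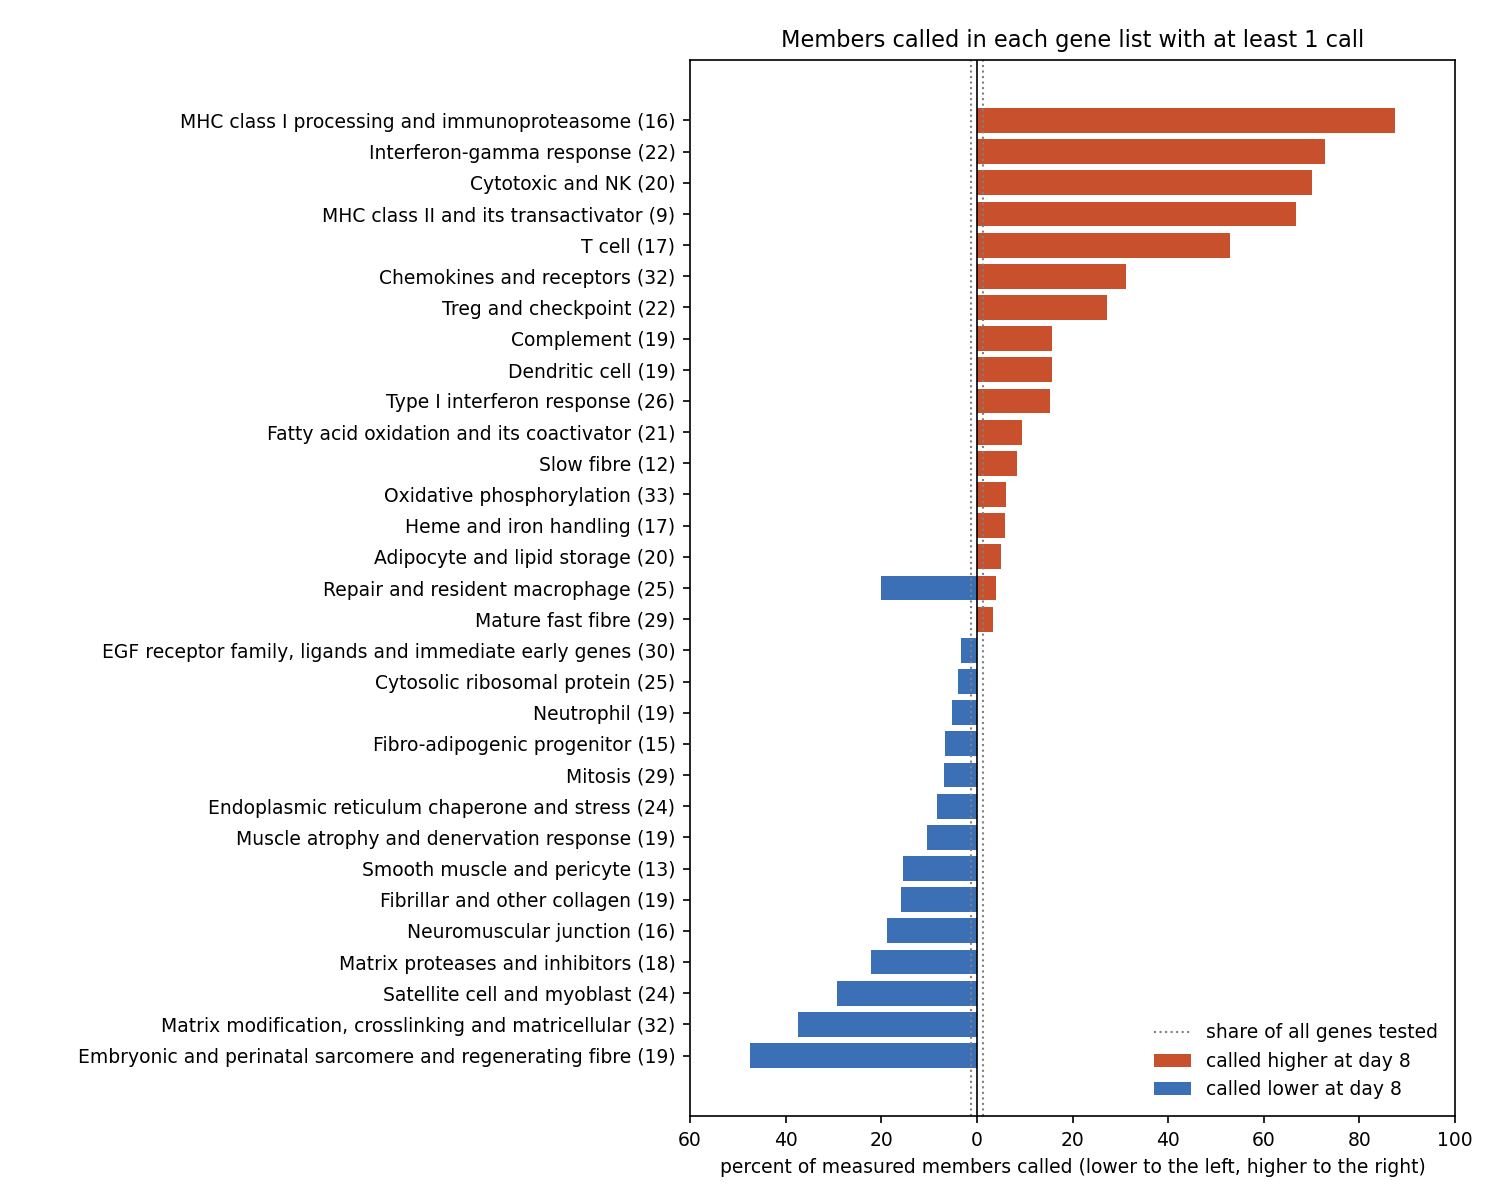
Percent of the measured members of each gene list that passed (adjusted p under 0.05 in limma), orange to the right for higher and blue to the left for lower, for each list with at least 1 such member, with dotted lines at the share of all genes, 1.19% higher and 1.15% lower. Antigen presentation, interferon-gamma and cytotoxic lists hold the largest higher shares, and the embryonic fibre and matrix modification lists the largest lower shares.

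The same contrast in AREG-treated muscle uses no array of the vehicle comparison. There 142 genes passed (0.719%), 104 higher (0.527%) and 38 lower (0.192%), and 108 genes passed in both. Iigp1 rose by 4.52 ± 0.23 in AREG muscle, from 6.78, 7.93 and 7.71 to 12.04, 11.91 and 12.02, against 4.42 ± 0.23 with vehicle. Of the 236 genes higher with vehicle, 221 had the same sign with AREG, 83 passed there and the median change was 0.73 against 0.95 with vehicle. With AREG, 169 of these 236 had every day 8 array above every day 4 array, against 4.2% of all genes. Of the 227 genes lower with vehicle, 218 had the same sign, 25 passed and the median was -0.33 against -0.75, with 121 of the 227 apart downward against 8.97% of all genes. The genes were chosen for passing with vehicle, a choice that favours larger sizes there.

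Among genes described above, Chrng changed by -1.19 with AREG and -2.32 with vehicle, Cthrc1 by -1.25 and -2.24, Mymk by -1.72 and -2.35, and Peg10 by -1.69 and -2.55. In these genes the AREG mean was below the vehicle mean on both days, and the gap was wider at day 4. At day 4 the AREG and vehicle means were 7.99 and 9.27 for Chrng, 8.90 and 10.53 for Cthrc1, 9.93 and 11.24 for Mymk, and 9.55 and 10.48 for Peg10. At day 8 they were 6.80 and 6.95, 7.66 and 8.29, 8.21 and 8.89, and 7.85 and 7.94. These gaps were not tested. Among rises the changes were 2.54 with AREG and 3.23 with vehicle for Nkg7, 1.83 and 2.55 for Cd3g, and 0.65 and 1.38 for Ccl11. They were 1.99 and 2.02 for Cxcl10, and 1.99 and 1.80 for Tap1. The change was larger with vehicle in 191 of the 236 genes higher and in 222 of the 227 lower. The difference between the 2 contrasts was tested for every gene: none passed (0.0% of 19752, limma), the smallest adjusted p was 0.426, and 1160 had an unadjusted p under 0.05. With arrays weighted by quality in limma, 2232 passed. Those weights ran from 0.167 to 7.43. In AREG muscle the weighted fit leaned on day 4 replicate 3, with a weight of 5.52, and on day 8 replicate 2, with 7.43. No gene is called different here. Across the 19752 genes, which are not independent replicates, the changes with vehicle and AREG had a correlation of 0.58.

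**Figure D5:**
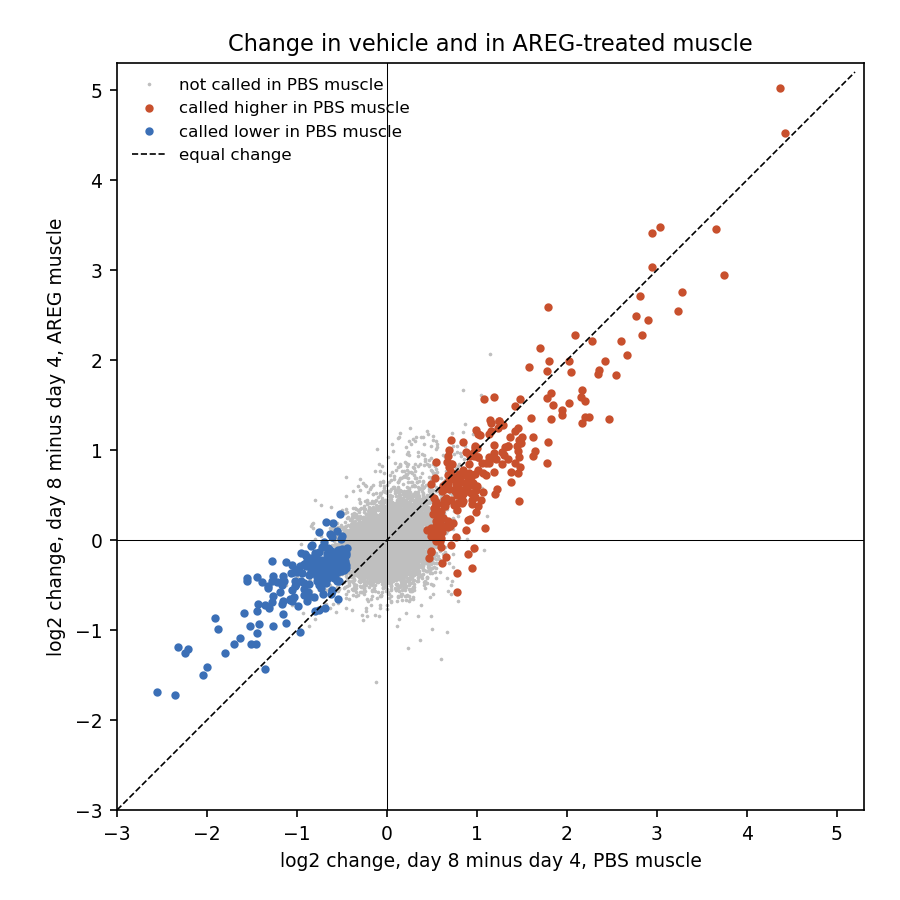
Log2 change from day 4 Foxp3-DTR- to day 8 Foxp3-DTR+ with PBS (x axis) against the same change with AREG (y axis), 1 point per gene, with genes that passed in PBS muscle in colour and a dashed line at equal change. Of the 236 rises 191 lie below the line, at medians of 0.95 with PBS and 0.73 with AREG, Iigp1 being an exception, and of the 227 falls 222 lie above it, at medians of -0.75 and -0.33.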

How the data were processed

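RNA of whole TA muscle was measured on Affymetrix Mouse Gene ST arrays, and per the submitters' processing notes the authors processed them with RMA in Affymetrix Power Tools, with versions and genome build not given in the sources used here. In the authors' deposited table all values are linear intensities from 4.65 to 21512 for 24922 probe clusters, with none missing. They were set to log2 with no pseudocount, no filter and no further normalization. Symbols came from the platform's annotation: 21425 clusters had 1 symbol, 1399 several and 2098 none listed, and 21347 matched RefSeq by Entrez identifier. Of the 921 genes with several clusters, the one brightest on average in the 12 arrays was kept, giving 19752 genes. Groups came from the sample titles. RMA shares information across arrays, and precision is limited by how few there are.

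limma 3.58.1 in R 4.3.3 (lmFit, eBayes) fitted 4 group means to all 12 arrays (8 residual and 7.1 prior degrees of freedom), two-sided, with Benjamini-Hochberg adjustment over all genes and a threshold of 0.05. Tables and figures used Python 3.11.15, pandas 2.3.3, numpy 2.4.6 and matplotlib 3.10.9. No 2 arrays held identical values. With 3 against 3 arrays the smallest p of an exact permutation test is 0.1. The fit was tested on simulated data. The gene lists, the genes named and the comparison itself were chosen with earlier results of these data known. Genes were named by a rule: the 15 largest rises and falls among genes that passed with groups apart, leaving out ribosomal protein, predicted, microRNA and similar genes; for each list up to 5 passing members per direction with the smallest p and up to 2 partners; and Foxp3 and Egfr. Genes outside it are said to be named after their values were seen, or complete a list or family. Promoter, motif and microRNA sequences came from RefSeq tables on GRCm38.p6. The alternatives tried were each array left out, only the 6 arrays, array weights, quantile normalization, median centring, a pseudocount, trended robust variances, a filter at the median level, other cluster rules and a replicate block.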

Additional observations from a re-analysis of the deposited data

Results flagged for a closer look

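For 4 genes that passed in the vehicle comparison, all day 8 arrays lay on one side of all day 4 arrays with vehicle and on the opposite side with AREG. Jak2, a kinase of interferon receptors, changed by 0.61 ± 0.12 with vehicle and -0.25 with AREG, a difference of 0.87 (limma adjusted p = 0.477). Klhl33 changed by 0.78 and -0.58, a difference of 1.36 (limma adjusted p = 0.426). Lrp2bp changed by 0.78 and -0.37, a difference of 1.15 (limma adjusted p = 0.486). Rps19, a ribosomal protein, changed by -0.52 and 0.29, a difference of -0.82 (limma adjusted p = 0.548). None of these differences passed after adjustment.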

How the results depend on the processing

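The 463 genes of the vehicle comparison became 759 with only the 6 arrays (370 higher, 389 lower) and 1649 with array quality weights (776 and 873), and ranged from 209 to 719 with 1 array left out. The 142 of the AREG comparison became 86 with only its 6 arrays, 91 with a pseudocount of 32 and 6676 with array weights (35.6% higher against 73.2%), and ranged from 79 to 458 with 1 array left out. No gene passed for the difference of the contrasts except 2232 with array weights (1367 higher, 865 lower), and 0 passed with each array left out. The Foxp3 difference of -0.02 turned to 0.01 with array weights, 0.03 with quantile normalization, and 0.03, 0 and 0.01 without day 4 replicate 1, day 8 replicate 1 and day 8 replicate 2, its range with 1 array left out being -0.07 to 0.03. Of the 100 named genes that passed, all kept their direction and 68 passed in each of the 22 alternatives that held them. With the replicate block 486 genes passed with vehicle, 141 with AREG and 0 for the difference. Residual correlations of vehicle arrays sharing a number were -0.117, 0.059 and -0.068, and those of the other vehicle pairs ran from -0.181 to 0.273. With so few arrays these values cannot tell whether the numbers pair the arrays, and the labels do not say that they do.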

Other observations

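Gene families were also counted, after the values were seen. Of 8 measured Gimap genes, GTPases of lymphocyte survival, 7 passed as higher in vehicle muscle, with a median change of 0.88. Of 23 killer cell lectin-like receptor (Klr) genes, 9 passed as higher, with a median of 0.55, 3 of them (Klrk1, Klrc1 and Klrg1) also members of the lists above. Of 11 Parp genes 3 passed as higher, with a median of 0.12, and of 5 Slamf genes 3, with a median of 0.94. Of 12 tubulin genes, 5 passed as lower (Tuba1a, Tuba4a, Tubb2a, Tubb2b and Tubb6), with a median of -0.41. The lubricin gene Prg4 changed by -1.52 and the amino acid transporter gene Slc7a5 by -0.83. BC023105, a gene with values of 10.71, 10.87 and 10.73 at day 4 and 12.90, 12.93 and 13.07 at day 8, changed by 2.20 ± 0.11 (limma adjusted p = 2.15e-08).

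In a fit over all clusters, 3% of the 1399 with several symbols passed, 30 higher and 12 lower. Of the 2098 with no entry 1.48% passed, 21 higher and 10 lower, and of the 21425 with 1 symbol 2.03%, 223 higher and 212 lower.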
